A study of Mus musculus with 6 samples.

Results

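A pair of independently derived mouse embryonic stem cell lines carrying the same doxycycline-inducible Sox17 were compared with each other on Illumina MouseRef-8 bead arrays. Members were the 2 arrays of the line labelled line 2 and the 2 arrays of the line whose label has no number, which was taken as line 1, out of 6 arrays in the series. Each line was represented by 1 array with doxycycline, the drug that switches the transgene on, at 1 µg/mL for 5 days, and 1 untreated array. The other 2 arrays came from KH2, the control embryonic stem cell line, with and without the drug, and are given beside the results. All cells were grown with serum and leukaemia inhibitory factor (LIF) and without feeder cells. Probes with a detection p-value under 0.05 on at least 2 of the 4 arrays were kept, which left 12072 of 25697 probes and 8408 genes, each read by its brightest kept probe. Just inside that limit were 665 probes detected on exactly 2 arrays, with a median normalised signal of 5.68 on the log2 scale. Just outside were 830 probes detected on 1 array, with a median of 5.50.

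Sox17 belongs to the SoxF transcription factors and acts in primitive and definitive endoderm, and its forced expression pushes embryonic stem cells towards an extraembryonic endoderm programme in which Gata6, laminins and type IV collagen are made. Lines made with the same transgene are separate cell populations, and embryonic stem cell lines are known to differ in imprinting, in the level of lineage genes and in karyotype. Gain of whole chromosomes, chromosome 8 among them, is a known change of cultured mouse embryonic stem cells.

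The 4 arrays of the inducible lines each detected 11657 to 11957 probes, with raw medians of 109 to 118 intensity units, and the number of arrays limits the precision. Pou5f1, the core pluripotency factor that marks embryonic stem cells, read 13.48 and 13.28 in line 1 with and without doxycycline and 13.47 and 13.29 in line 2. Neither Sox17 probe passed the detection limit on more than 1 of the 4 arrays. The brighter one read 5.61 in line 1 with doxycycline, 5.26 without, 6.47 in line 2 with doxycycline and 5.60 without, and was detected only on the array of line 2 with doxycycline, so it gave no test of how much transgene either line made. Eif2s3y, a Y-linked translation initiation factor subunit, was below detection on all 4 inducible arrays (4.70 to 4.94) and detected on both KH2 arrays (6.97 and 7.91), while Uty, a second Y-linked gene, read 6.39 to 6.56 on the inducible arrays and 7.14 and 6.55 in KH2. Xist, the RNA of the inactive X chromosome, was not detected on any array.

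Across the 4 arrays, a few percent of the probes were called different between line 2 and line 1, a share that moved with the settings. Probes not called are not shown to be alike. With a line term and a doxycycline term in limma (two-sided, Benjamini-Hochberg over all 12072 probes, threshold 0.05), 177 probes (1.47% of those tested) were called higher and 119 probes (0.986%) lower in line 2. Read by gene, 130 were called higher (1.55%) and 77 lower (0.916%). At least 2-fold higher in line 2 in both pairs, meaning with doxycycline and without it, were 50 genes (0.595%), and at least 2-fold lower in both were 17 genes (0.202%). All 67 of these were also called, but on the same 4 arrays that chose them, so the call is no second line of support. With doxycycline alone the counts were 138 higher (1.64%) and 65 lower (0.773%), and without it 190 higher (2.26%) and 103 lower (1.23%). Both line 2 arrays lay above both line 1 arrays in 23.3% of all genes and below both in 23.2%. They did so in 47 of the 50 and in all of the 17, genes that were chosen for their difference.

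Differences of the pairs correlated with r = 0.51 across the 8408 genes, which are not independent replicates. The 2 differences share no array but share the chip and the normalisation, and 65.7% of genes had the same sign in both. Over the kept probes the arrays did not group strictly by line. The line 2 arrays correlated with each other at r = 0.989. Line 1 with doxycycline correlated at 0.985 with untreated line 2 and at 0.983 with untreated line 1. Each line is 1 derivation with 1 array per condition, so a p-value here measures only the spread left after both terms, with 1 residual degree of freedom moderated over all probes. The number of called probes turned on the settings: it was 0 without the doxycycline term, and in a fit that also takes in KH2 it was 236 with all 6 arrays, 52 without the untreated line 2 array, 141 without the doxycycline line 2 array, 423 without the untreated line 1 array and 480 without the doxycycline line 1 array. The split of higher against lower moved to 667 and 660 without a background model and to 532 and 546 with a larger offset.

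**Figure D1:**
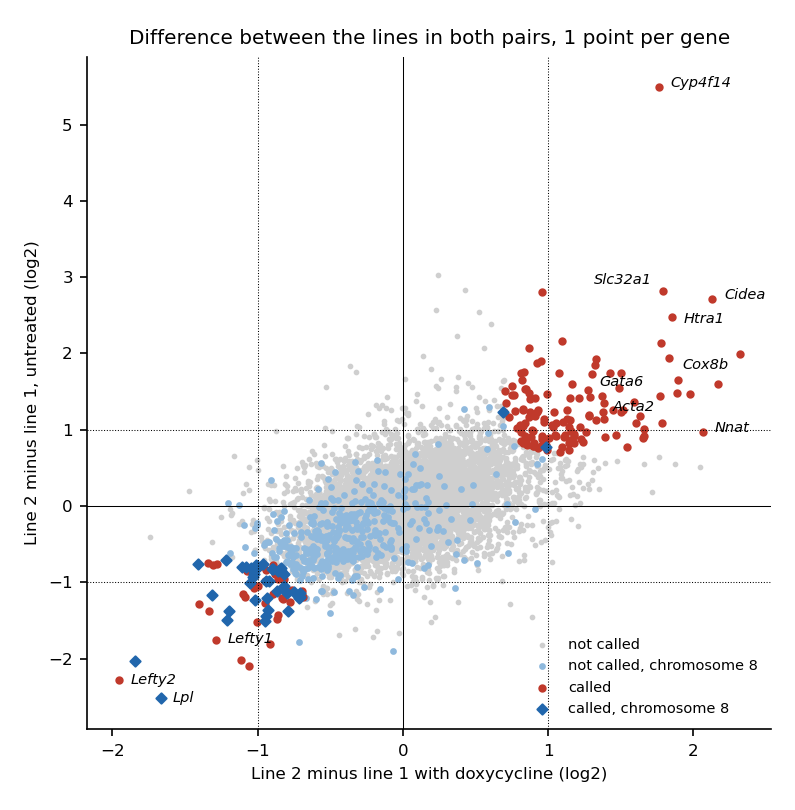
Difference of line 2 minus line 1 (log2) with doxycycline on the x axis and untreated on the y axis, 1 point per gene, with called genes in red, chromosome 8 genes in light blue or, where called, as dark blue diamonds, and dotted lines at 2-fold. Called genes lie in the upper right and lower left, and the chromosome 8 genes form a cloud shifted below 0 on both axes.

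The genes furthest above line 1 in both pairs were a mixed set of metabolic, secreted and neural genes. Cidea, a lipid droplet protein of brown fat, read 6.13 and 5.79 in line 1 with and without doxycycline and 8.26 and 8.50 in line 2. The difference was 2.42 ± 0.19 (moderated SE, n = 2 arrays a line, limma adjusted p = 0.00923) or 5.36-fold. Both KH2 arrays lay with line 1, at 6.05 and 5.96. The ± values here and below are limma standard errors moderated over all probes, and rest only in part on the gene's own arrays. Cox8b, a cytochrome c oxidase subunit of heart and brown fat, was below detection on both line 1 arrays and read 7.56 and 7.12 in line 2, at least 3.19-fold higher (limma adjusted p = 0.00923). Fbp2, the muscle form of fructose bisphosphatase, read 7.91 and 6.20 in line 1 against 9.74 and 8.14 in line 2. So the untreated line 2 array stood above line 1 even with the drug, and Fbp2 was also higher with doxycycline than without by 1.71 on the log2 scale in line 1 and by 1.60 in line 2. Single arrays stand behind those responses.

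Htra1, Spon2, Vgf and Nppb encode secreted proteins. Htra1, a secreted serine protease, read 8.69 and 7.06 in line 1 and 10.55 and 9.54 in line 2, and its second probe was also at least 2-fold higher in both pairs. Spon2, a matrix protein of the spondin family, read 8.0 and 7.77 against 10.17 and 9.37. Vgf, a neuropeptide precursor, read 6.61 and 6.39 against 8.50 and 8.05, and Nppb, the precursor of B-type natriuretic peptide, 6.63 and 5.85 against 8.52 and 7.33. In these 4 genes, chosen for their difference, both line 2 arrays lay above both line 1 arrays, as in 23.3% of all genes. Their mean differences were 2.17, 1.89, 1.78 and 1.69 on the log2 scale.

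Other members of the top 15 were Slc32a1, the vesicular transporter of GABA and glycine (mean difference 2.31), Calml4, a calmodulin-like protein (1.96), Cd40, a receptor of the TNF receptor family (1.62), Stard8 (1.60), and Gm525, a gene of no settled role (1.58). For Cd40, 1 of its 3 other kept probes did not have the same sign in both pairs. Bhmt2, a methyltransferase of homocysteine metabolism, and Gxylt2, a xylosyltransferase of the Notch pathway, were below detection in line 1 and at least 2.51-fold and 1.94-fold higher in line 2. Cyp4f14, a cytochrome P450 of fatty acid hydroxylation, was detected on 1 of the 2 line 1 arrays. With doxycycline it read 7.14 in line 1 and 8.90 in line 2, a difference of 1.76, and without the drug it was below detection in line 1 and at 10.23 in line 2. It was below detection on both KH2 arrays. Its limma adjusted p of 0.0467 rests in part on the undetected array.

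**Figure D2:**
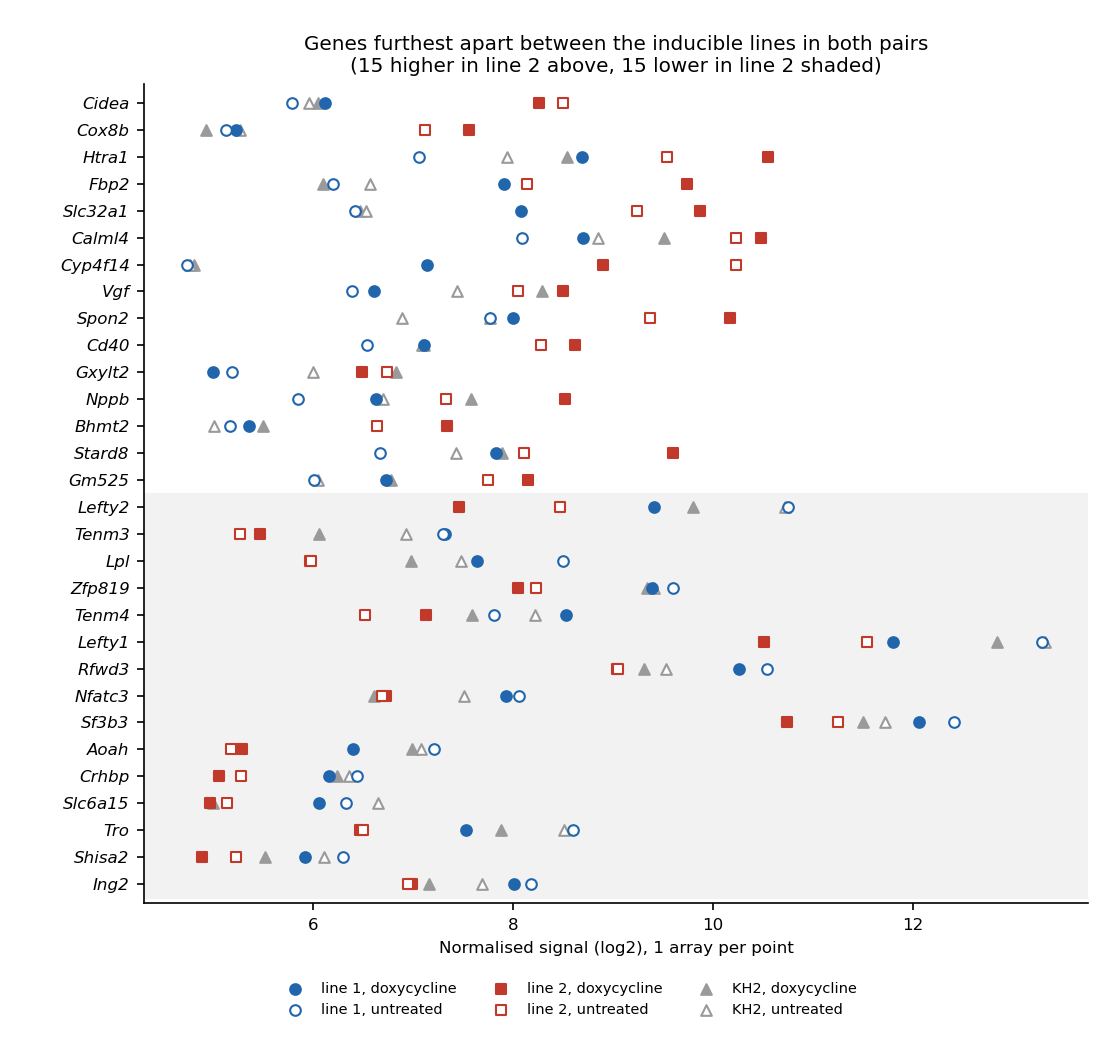
Normalised signal (log2) on each of the 6 arrays for the 15 genes furthest higher and the 15 furthest lower in line 2 in both pairs, ranked within each block by the smaller of the pairs' differences. Squares of line 2 stand apart from circles of line 1, and triangles of KH2 fall with line 1 for Cidea and Zfp819 and between the lines for Sf3b3.

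On the lower side the leading gene was Lefty2. Lefty1 ranked below Tenm3, Lpl, Zfp819 and Tenm4 by the smaller of the pairs' differences. Lefty2 and Lefty1 are secreted antagonists of Nodal that are themselves Nodal targets. Lefty2 read 9.41 and 10.75 in line 1 with and without doxycycline and 7.45 and 8.47 in line 2, so it was 4.34-fold lower in line 2 (difference -2.12 ± 0.17, limma adjusted p = 0.00923). Lefty1 read 11.80 and 13.29 against 10.51 and 11.53, a difference of -1.52 ± 0.18 (limma adjusted p = 0.0156). Untreated KH2 read 10.72 for Lefty2 and 13.32 for Lefty1, next to untreated line 1 in both. Untreated line 2 was thus lower than line 1 treated with doxycycline, in Lefty2 by more than in Lefty1. Of 8 kept genes of the Nodal pathway, 7 were lower in line 2 (49.9% over all genes) with a median of -0.21. Beside the Lefty genes none was called, and Nodal itself read 8.89 and 8.94 against 8.77 and 8.69.

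Next came Tenm3 and Tenm4, teneurin adhesion proteins, and Lpl, lipoprotein lipase. Tenm3 was below detection in line 2 and at least 3.10-fold higher in line 1, though its second probe did not follow in both pairs. Tenm4 read 8.53 and 7.81 in line 1 and 7.13 and 6.52 in line 2. Lpl read 7.64 and 8.50 against 5.97 and 5.98, with KH2 in between at 6.98 and 7.48. Zfp819, a zinc finger protein, read 9.39 and 9.60 against 8.05 and 8.23, and Tro, the adhesion protein trophinin, 7.53 and 8.60 against 6.47 and 6.50. In each of these, chosen for their difference, both line 2 arrays lay below both line 1 arrays, as in 23.2% of all genes. Aoah, a lipopolysaccharide-degrading hydrolase, Crhbp, a binding protein of corticotropin-releasing hormone, Slc6a15, an amino acid transporter, and Shisa2 were below detection on both line 2 arrays, and were at least 2.18-fold, 1.54-fold, 1.43-fold and 1.35-fold higher in line 1. Rfwd3 (a ubiquitin ligase of the DNA damage response), Nfatc3 (a calcium-regulated transcription factor), Sf3b3 (a splicing factor subunit), Ing2 (a chromatin reader) and Urb2 (of ribosome biogenesis) differed by -1.35, -1.29, -1.24, -1.12 and -1.03. All 5 lie on chromosome 8, as do Tenm3 and Lpl. Prph, the intermediate filament peripherin, completed the 17 at -1.26.

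KH2 gave a further reading of each gene. The mean of its arrays lay nearer to line 1 than to line 2 for 29 of the 50 higher genes and for 12 of the 17 lower genes, against 46.9% of all genes. Over all called genes these counts were 71 of 130 higher and 37 of 77 lower. The 5 lower genes nearer to line 2 in KH2 were Rfwd3, Nfatc3, Sf3b3, Ing2 and Urb2. The difference between the lines also correlated across genes with the response of KH2 to doxycycline, with which it shares no array: r was 0.424 for the pair with doxycycline and 0.324 for the untreated pair. Both correlations are across 8408 genes of 1 chip normalised together and are given as a description.

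Gata6, the transcription factor that starts the primitive endoderm programme, was higher in line 2 whether or not doxycycline was given. The line 1 arrays with and without the drug read 8.43 and 6.25, those of line 2 read 9.71 and 7.77, and KH2 read 6.59 and 6.29. Untreated line 1 was thus at the level of KH2, while untreated line 2 stood above it by about as much as it stood above line 1. The difference between the lines was 1.28 with doxycycline and 1.52 without (mean 1.40 ± 0.17, limma adjusted p = 0.0156). The gain with doxycycline was similar in both, at 2.18 on the log2 scale in line 1 and 1.94 in line 2. Foxq1, a forkhead factor put on the same list, followed the same order, at 7.13 and 5.84 in line 1 and 8.17 and 7.07 in line 2 (1.13 ± 0.17, limma adjusted p = 0.0316). That list, like the others, was chosen with earlier results of these data known, so Foxq1 is no independent support for Gata6. Of 7 kept genes of the primitive endoderm regulator list, 5 were higher, and Gata6 and Foxq1 were called. Over all genes 50.1% were higher and 1.55% were called higher. Gata4 and Pdgfra were not called and lay near the detection limit. Pdgfra was below it on both untreated arrays and read 6.01 in line 1 and 6.71 in line 2 with doxycycline, and Gata4 was below it in line 1 with doxycycline and read 5.70 to 6.21 on the other 3 arrays. Sox7 and Foxa2, which mark primitive and definitive endoderm, were kept by no probe.

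Genes further along the endoderm programme leaned the same way. Of 11 kept parietal endoderm genes, 10 were higher in line 2, with a median of 0.46 against 0.00 over all genes. Over all genes 50.1% were higher and 1.55% were called higher, and 2 parietal genes were called. These were Vim, the intermediate filament vimentin, at 9.88 and 9.58 in line 1 and 10.89 and 10.47 in line 2, and Sparc, a collagen-binding matrix protein, at 11.03 and 10.25 against 11.86 and 11.30. The summed linear normalised signal of the 15 parietal genes on the array was 13280 and 11570 for line 1 and 25840 and 19100 for line 2. KH2 was higher still at 33470 and 21210. Bright genes weigh most in a linear sum. Krt8 and Krt18 of this list read 13.93 and 12.61 in KH2 with doxycycline and 12.89 and 11.56 in line 2 with it. Sparc and Vim were lower in KH2 with doxycycline, at 11.39 and 10.38, than in line 2 with it. All 6 kept visceral endoderm genes were higher (50.1% over all genes), with a median of 0.55. Apoe, an apolipoprotein, was called at 11.69 and 10.91 against 12.49 and 11.98. Afp and Ttr, secreted products that define visceral endoderm, were not detected on any array. Summed over the 15 visceral endoderm genes on the array, the linear normalised signal was 4599 and 3900 for line 1, 7782 and 7063 for line 2, with KH2 at 5172 and 4271. The bright Apoe weighed heavily in this sum.

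Basement membrane genes gave 9 higher and 6 lower of 15 (50.1% higher over all genes), a median of 0.13, and Sparc alone called. Lama1, the laminin alpha chain of embryonic basement membranes, read 11.22 and 9.34 in line 1 and 11.78 and 11.41 in line 2, so the difference was 0.56 with doxycycline and 2.08 without (limma adjusted p = 0.0713). Col4a1 and Col4a2, neighbouring genes for chains of type IV collagen, had the same form. Col4a1 read 10.84 and 9.19 against 11.44 and 10.49, and Col4a2 9.94 and 8.67 against 10.53 and 9.63, with limma adjusted p of 0.0582 and 0.0658. In all 3 the untreated arrays differed more than the treated ones, as for Gata6, and untreated KH2, at 9.59, 9.28 and 8.62, stood nearer to untreated line 1 than to untreated line 2.

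The 9 kept trophoblast genes had the highest list median, 0.59, with 8 higher against 50.1% of all genes. Rhox6, a homeobox gene of the X-linked Rhox cluster, was called, at 8.22 and 6.85 in line 1 and 8.93 and 8.20 in line 2. Its neighbour Rhox5, named after its values were seen, read 12.95 and 11.86 against 13.77 and 13.60 and was called as well. The list shares Krt8, Krt18 and Krt19 with parietal endoderm, and Elf5, Eomes and Cdx2, which define trophoblast stem cells, were not detected on the inducible arrays. Its summed signal was 9640 and 9994 in line 1, 16460 and 13960 in line 2, with KH2 at 28030 and 19030, so KH2 was the highest of the cell lines. The bright Krt8 and Krt18 weighed heavily in this sum too. The part of trophoblast cells in the difference between the lines was not tested.

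Most contractile and actin genes were also higher in line 2. These genes are driven in many cells by serum response factor (SRF) and its cofactors, which respond to actin polymerisation and cell spreading. Acta2, smooth muscle actin, read 13.21 and 12.48 in line 1 and 14.58 and 13.93 in line 2, a difference of 1.41 ± 0.16 (limma adjusted p = 0.0156), and its 3 dimmer probes gave 1.66 to 2.13 in single pairs. KH2 read 14.09 and 13.75 and so stood with line 2. Tagln, the actin-binding protein transgelin, read 7.03 and 6.53 against 8.48 and 7.79, with KH2 at 8.68 and 7.90. Csrp1, a LIM protein of the actin cytoskeleton, read 11.08 and 10.54 against 12.37 and 11.73, with KH2 at 12.45 and 11.52. In all 3 genes both line 2 arrays lay above both line 1 arrays, as in 23.3% of all genes, and line 1 was the lowest of the cell lines.

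Of 18 kept members of the smooth muscle and actin list, 16 were higher in line 2, with a median of 0.51. Over all genes 50.1% were higher. Called higher were 5 (1.55% over all genes): the 3 above, Actg2, enteric smooth muscle actin (1.18 ± 0.21, limma adjusted p = 0.0383), and Ccn1, a secreted matricellular protein (0.98 ± 0.17, limma adjusted p = 0.04). Acta1, skeletal actin, was at 9.53 and 9.49 in line 1, 10.49 and 10.12 in line 2, with KH2 at 12.13 and 11.31, and did not pass the test between the lines (limma adjusted p = 0.0593). Myh11 and Cnn1, which define mature smooth muscle, were not detected on any array. The summed linear normalised signal of the 22 list genes on the array was 61810 and 53200 in line 1, 92860 and 73760 in line 2, with KH2 at 89470 and 80220. Fewer cells of a type and less RNA per cell cannot be told apart in these bulk samples.

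Fibroblasts express many of the same genes, so their markers were read beside them. Of 14 fibroblast and feeder cell genes on the array, 7 were not detected on any inducible array, Col1a2 and Col3a1 among them. Their summed signal was 1868 and 1343 in line 1, 2399 and 1666 in line 2, with KH2 at 2272 and 2265. Of the 7 kept, 5 were higher in line 2 (50.1% over all genes), with a median of 0.26, and none was called by limma. The part of such cells in the result was not tested.

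Promoters of the contractile genes are shown because the CArG box, the element that SRF binds, is a known mark of this group. The box was searched by its consensus in the 300 bases around each gene start (250 before, 50 after) in RefSeq sequence of build GRCm38.p6. It is its own reverse complement, so a search of 1 strand covers both, and overlaps with other motifs were not searched. Boxes outside this window or departing from the consensus were not searched, so a gene without a match is not shown to lack a box. It was found in 1.63% of 32851 windows and in 1.69% of the 6851 tested genes with a window. Among the 14 smooth muscle and actin genes with a window 4 had it (28.6%): Acta1, Cnn2, Srf and Vcl, of which none was called. None of the 3 called members with a window had a match, and the other called members had no window. Of 36 genes with a window at least 2-fold higher in line 2, 2 had a match (5.56%), Fhl2 and Anxa5. These windows are printed 5′ to 3′ with the CArG box in capitals, for Fhl2 at both of its starts and for Acta1 and Cnn2.
Fhl2 at chr1:43196823-43196882, minus strand: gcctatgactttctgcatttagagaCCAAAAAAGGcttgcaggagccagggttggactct
Fhl2 at chr1:43163962-43164017, minus strand: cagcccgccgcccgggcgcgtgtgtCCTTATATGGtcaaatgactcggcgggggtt
Acta1 at chr8:123894814-123894873, minus strand: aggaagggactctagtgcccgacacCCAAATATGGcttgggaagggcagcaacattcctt
Cnn2 at chr10:79988519-79988578, plus strand: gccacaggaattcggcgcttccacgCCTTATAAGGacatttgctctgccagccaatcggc

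Fhl2, a LIM-only protein that binds SRF cofactors, read 6.54 and 5.98 in line 1, 7.69 and 7.11 in line 2, with KH2 at 7.46 and 6.78, and line 2 minus line 1 was 1.14 ± 0.16 (limma adjusted p = 0.0291). Anxa5, a calcium-dependent phospholipid-binding protein, read 10.57 and 10.18 in line 1, 11.70 and 11.44 in line 2, with KH2 at 11.55 and 11.36, and line 2 minus line 1 was 1.19 ± 0.16 (limma adjusted p = 0.0247). Both were named after their values were seen, for the box in their promoters. Cnn2, a calponin of the cytoskeleton, read 8.78 and 8.40 against 9.23 and 8.69 and was not called (limma adjusted p = 0.239). A match is a description of the letters, and the groups with and without the box were not set against each other.

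Pluripotency genes differed little. Of 10 kept core factors 8 were lower in line 2 (49.9% over all genes), with a median of -0.21, and none was called by limma. Nanog read 12.26 and 12.35 in line 1 and 11.96 and 12.01 in line 2 (limma adjusted p = 0.303), and Sox2 9.63 and 9.79 against 9.33 and 9.53 (limma adjusted p = 0.369). Of 14 naive state genes 7 were higher and 7 lower, and 1 was called each way. Tbx3, a T-box factor of the naive network that is also induced in primitive endoderm, read 8.98 and 7.66 in line 1 and 10.19 and 9.08 in line 2 (1.31 ± 0.17, limma adjusted p = 0.0179), and 1 of its 2 other kept probes had the same sign in both pairs. Zfp42, known as Rex1, read 11.86 and 11.82 against 10.75 and 11.02 (-0.95 ± 0.17, limma adjusted p = 0.0426), with KH2 at 10.56 and 11.06. Zfp42 lies on chromosome 8, as does Klf2, the other list member there, at 11.74 and 11.60 against 10.85 and 11.50.

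Most other lists had few called genes or none, beside 50.1% of all genes higher and 1.55% called higher in line 2. Called higher were Bmp4, a secreted ligand (mean difference 1.05), in the BMP target and Id list, where 7 of 8 genes were higher with a median of 0.35, and in the mesendoderm list, where 2 of 4 were higher. Cdx1, a caudal homeobox factor (0.90), was called among Wnt targets, 4 of 5 higher and median 0.19. Cryab, a small heat shock protein (1.37), was called in the heat shock list, 4 of 9 higher and median -0.06. Flt1, a VEGF receptor (1.52), was called in the endothelial list, 3 of 6 higher and median 0.07. Flt1 was at 6.73 and 5.95 in line 1, at 8.03 and 7.68 in line 2 and at 8.06 and 8.02 in KH2, while the defining endothelial gene Kdr was not detected on any array. Among 14 kept imprinted genes, a class whose levels drift between stem cell lines, the median was 0.01 and 1 was called in each direction. Nnat, expressed from the paternal copy, read 5.73 and 6.96 in line 1 against 7.80 and 7.93 in line 2 (1.52 ± 0.26, limma adjusted p = 0.0379). Grb10, an adaptor that restrains insulin signalling, read 12.44 and 12.78 against 11.61 and 11.57 (-1.02 ± 0.18, limma adjusted p = 0.0383). No gene was called in the primed epiblast, neuroectoderm, germ cell, p53 target, FGF and ERK target, ATF4 stress, endoplasmic reticulum folding, cholesterol synthesis, glycolysis and hypoxia, epithelial junction, cell cycle, DNA methylation, interferon or metallothionein lists, whose medians ran from -0.25 to 0.21. Several of these lists had medians of opposite sign in the pairs. With doxycycline and without, these were -0.28 and 0.39 for ATF4 stress, 0.29 and -0.25 for neuroectoderm, 0.07 and -0.41 for cholesterol synthesis, 0.25 and -0.15 for p53 targets and 0.24 and -0.09 for interferon.

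**Figure D3:**
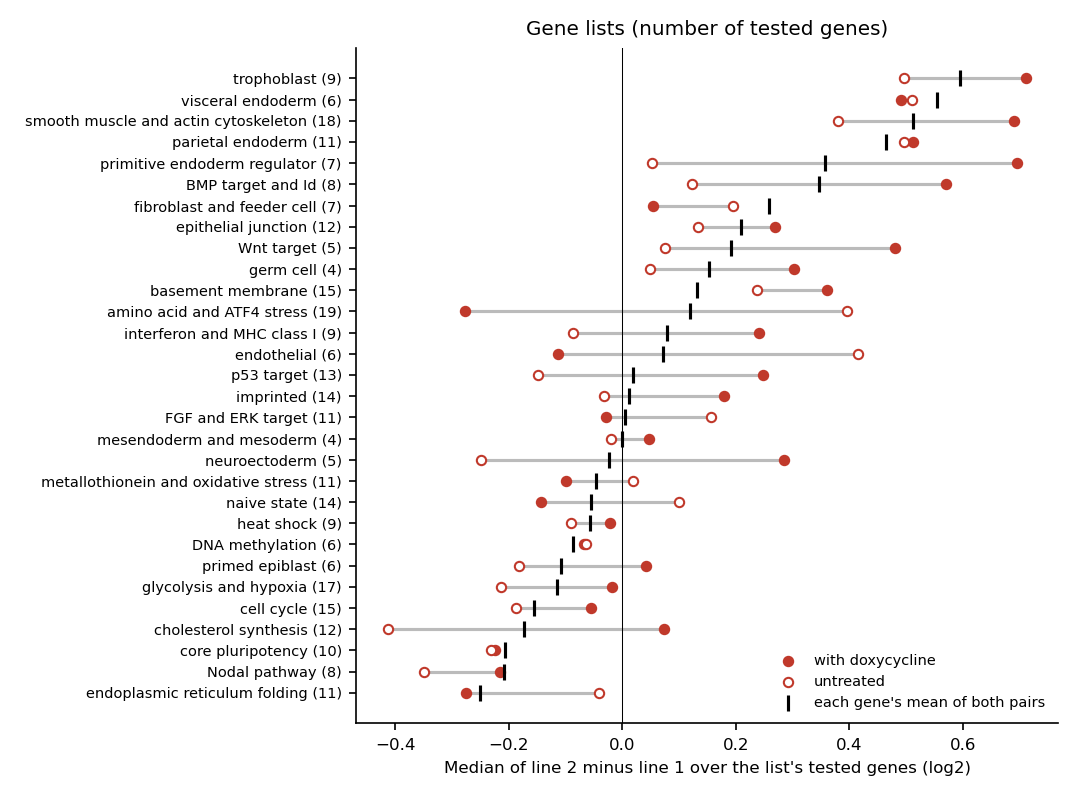
Median of line 2 minus line 1 (log2) over the kept genes of each list with at least 4, with doxycycline (filled), untreated (open) and for each gene's mean of both pairs (bar), with the number of genes in brackets. Trophoblast, visceral endoderm, smooth muscle and parietal endoderm lists are among those to the right of 0 in both pairs, as are basement membrane and epithelial junction lists. Core pluripotency and Nodal pathway lists are among those to the left, as are cell cycle and DNA methylation lists.

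One chromosome differed from the rest between the lines. Of 459 kept genes on chromosome 8, 398 (86.7%) were lower in line 2, with a median difference of -0.43, or 1.35-fold. The median was -0.43 with doxycycline and -0.44 without it. On each of the other 19 chromosomes, the X included and the Y left out, which hold 180 to 742 kept genes, the median lay between -0.05 and 0.06 and the share of lower genes between 42.5% and 54.5%. Both lines kept their level on chromosome 8 when doxycycline was added, with a median response of 0.00 in line 1 and 0.01 in line 2.

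**Figure D4:**
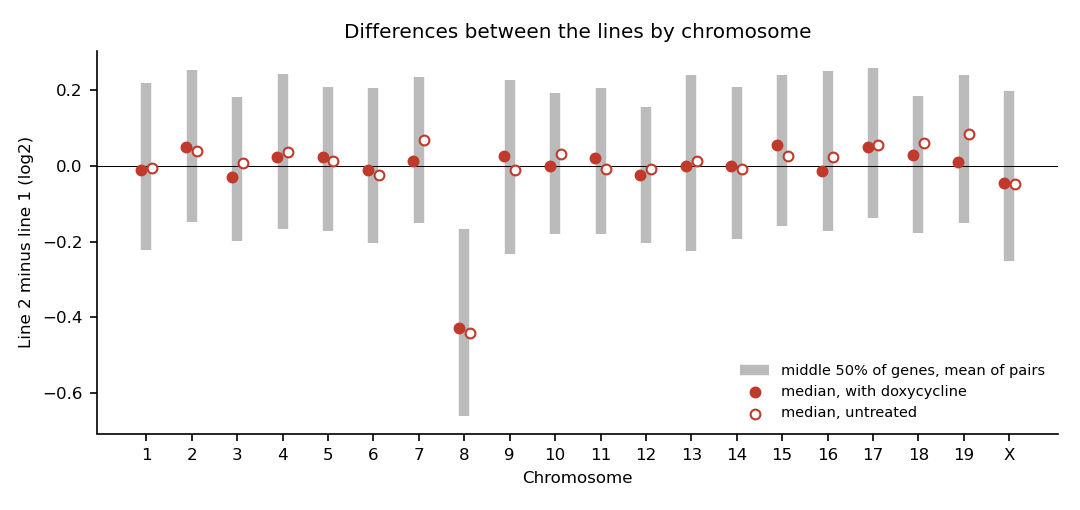
Line 2 minus line 1 (log2) by chromosome, with the median of the kept genes with doxycycline (filled) and untreated (open) and a bar over the middle 50% of genes. Chromosome 8 lies at -0.43 and -0.44, and the other chromosomes lie between -0.05 and 0.09 in both pairs.

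The shift ran along the whole of chromosome 8 and was not set by a few genes. When the genes were taken in their order on the chromosome in 10 segments of 45 or 46, the segment medians ran from -0.59 to -0.28 and 80.4% to 95.7% of the genes in a segment were lower. The 173 segments of the other chromosomes had medians from -0.17 to 0.18. By brightness, the 153 dimmest chromosome 8 genes had a median of -0.29, the 153 in the middle -0.52 and the 153 brightest -0.47.

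Set against KH2, the lines lay on opposite sides on chromosome 8. The median of line 1 minus KH2 over chromosome 8 genes was 0.30 with doxycycline and 0.31 untreated, while that of line 2 minus KH2 was -0.10 and -0.09. Both comparisons use the same KH2 arrays. On the other chromosomes the untreated medians against KH2 ran from -0.06 to 0.02 for line 1 and from -0.05 to 0.03 for line 2. With doxycycline they ran more widely, from -0.13 to 0.16 for line 1 and from -0.07 to 0.11 for line 2. Both lines thus lay outside the range of the other chromosomes under both conditions, line 1 further than line 2. The arrays read RNA, so whether the number of DNA copies of chromosome 8 differed between the lines was not tested.

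**Figure D5:**
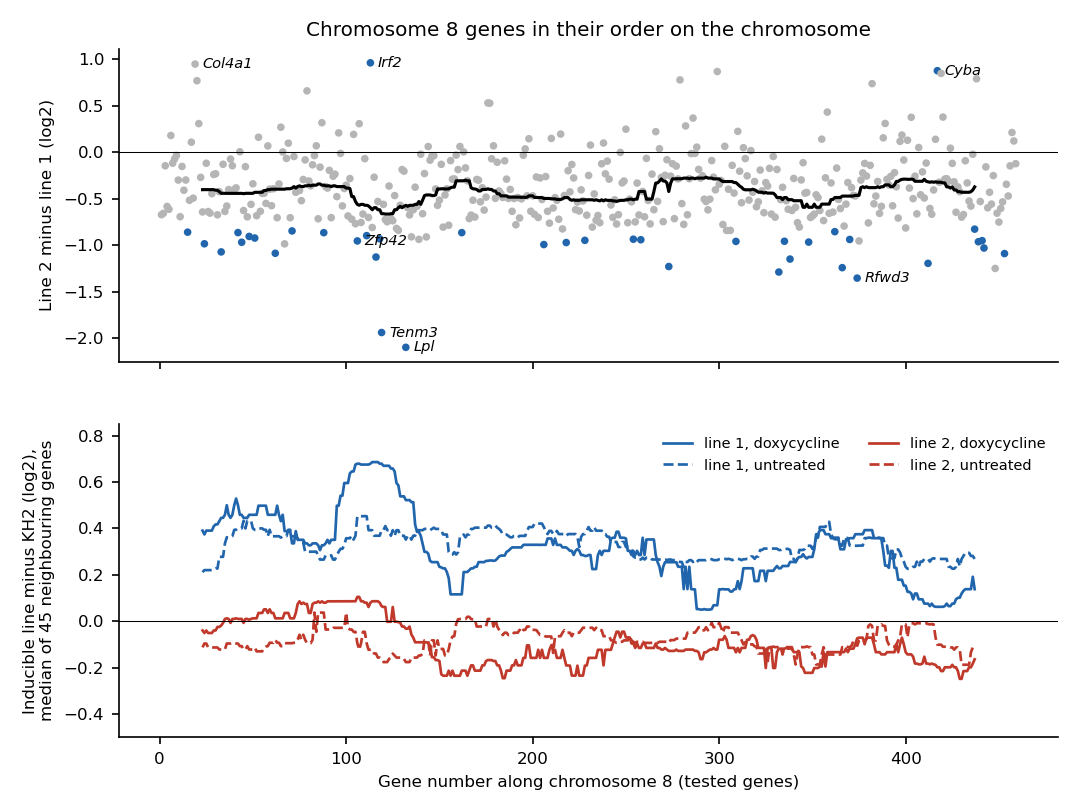
Chromosome 8 genes by their order along the chromosome: above, line 2 minus line 1 (log2) per gene, called genes in blue, with the running median of 45 neighbours; below, the running median of each inducible array minus the KH2 array of the same treatment. The running median stays below 0 along the whole chromosome, and both line 1 curves lie above 0 while those of line 2 lie at or below it for most of the chromosome.

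Chromosome 8 held 38 of the 77 genes called lower in line 2 (49.4%) and 5.46% of the genes tested, 7 of the 17 genes at least 2-fold lower in both pairs, and none of the 50 at least 2-fold higher. Called lower there were Tfdp1 and E2f4, partners in the E2F complexes that control the cell cycle, at 11.49 and 11.73 against 10.55 and 10.52 for Tfdp1 and at 9.74 and 9.97 against 8.82 and 8.98 for E2f4. So were Sfrp1, a secreted Wnt antagonist (-1.08), and Mt3, a metallothionein (-1.23). These 4 were named after their values were seen. With the chromosome 8 genes left out, 143 probes were called higher and 51 lower, and 10 genes were at least 2-fold lower in both pairs.

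Some chromosome 8 genes went the other way. Cyba, a subunit of the NADPH oxidase, and Irf2, an interferon regulatory factor, were the 2 called higher, also named after their values were seen. Cyba read 11.48 and 11.11 in line 1 and 12.47 and 11.88 in line 2, and Irf2 7.46 and 6.66 against 8.15 and 7.90. Col4a1, Col4a2 and Acta1, described above, also lie on this chromosome and were higher in line 2 in both pairs without passing the test. Some list medians moved when chromosome 8 genes were left out, the neuroectoderm list from -0.02 to 0.24, the metallothionein list from -0.05 to 0.10, the endoplasmic reticulum folding list from -0.25 to -0.15 and the naive state list from -0.06 to 0.04.

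The responses of the lines to doxycycline were set side by side, and with 1 array in each group their difference could not be tested. Of 7557 genes detected on all 4 arrays, 93 had a response at least 2-fold larger in line 2 and 86 at least 2-fold smaller. For 52.5% of these 179 genes the untreated line 1 array lay furthest from the other 3, against 37.6% of all 7557. Sox21, a SoxB transcription factor, read 7.28 in untreated line 1 and 9.96 with doxycycline, but 10.11 and 10.39 in line 2. Chac1, a glutathione-degrading enzyme of the ATF4 stress response, went from 11.53 to 13.50 in line 1 and from 13.09 to 12.97 in line 2. Ptpn18, a phosphatase, went from 6.05 to 8.04 and from 8.59 to 8.56. In these 3 genes untreated line 2 was already at or near the level of line 1 with the drug.

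Gbp2, H2-M3 and Prps2 were higher in untreated line 1 than on the other 3 arrays of the inducible lines. Gbp2, an interferon-induced GTPase, read 8.17 in untreated line 1 and 6.22 with doxycycline, 6.72 and 7.11 in line 2 in the same order, and 9.45 and 9.36 in KH2. H2-M3, a class Ib histocompatibility molecule, went from 7.54 to 5.99 in line 1 and from 6.56 to 6.67 in line 2, and Prps2, a phosphoribosyl pyrophosphate synthetase, from 8.19 to 6.74 and from 6.67 to 6.93. Amn, the amnionless protein of the visceral endoderm surface, went from 8.51 to 7.47 in line 1 and from 9.01 to 9.52 in line 2. The gene 2210409E12Rik had a response of 2.04 on the log2 scale with line 2, against 0.51 with line 1 and 1.07 with KH2. Of the remaining genes with the widest gaps, Cpsf4l, Tmem42, Apod and Pdyn had responses of 0.72 to 1.21 in line 1 and of -1.14 to -0.71 in line 2. Plekha2, Dok2 and Bhlhe40 had responses of -1.17 to -0.74 in line 1 and of 0.57 to 1.02 in line 2.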

How the data were processed

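Total RNA of 6 samples was extracted with Trizol, amplified, biotin-labelled and read on 1 Illumina MouseRef-8 chip, per the labels' protocols. For every probe the deposited raw table gives an intensity averaged over beads with its standard error, the bead count (median 38 to 40) and a p-value for detection, per the file headers. The authors also deposited normalised intensity values made in BeadStudio, per the submitters' processing notes, by a method not given in the sources used here. Their order on each array was that of the raw signal.

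Raw signal was normalised with neqc (limma 3.58.1 in R 4.3.3), which infers the background from detection p-values, adds an offset (16 here), quantile-normalises all 6 arrays and takes log2. Lines were compared in limma on 4 arrays with line and doxycycline as additive terms (lmFit, eBayes). The fit was run on simulated arrays with known differences and independent noise drawn from its own variance model. Such data cannot show whether the spread between these arrays measures that between cultures of a line. A difference against a line with no detected array is given as a bound at the detection limit of each array. Probes were named through the platform annotation, updated by Entrez number to a mouse gene table of GRCm38.p6 that also gave chromosome and gene order. Of the probes, 23978 had a gene, 16 of these with a number not in that table, and 1719 had none.

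Genes were named by these rules: the 15 furthest apart in each direction in both pairs, those with the lowest p, up to 4 per list, the 8 with the widest gap in response in each direction, and the markers. Of the list genes the text gives the called ones and a few others. Members and the 32 gene lists were chosen with earlier results of these data known; 31 lists had a kept gene, and no gene of the two-cell-like state list was kept. Nothing in the labels says whether a line's arrays came from separately kept cultures, and the spread may be technical.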

Additional observations from a re-analysis of the deposited data

Results flagged for a closer look

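The response of Pga5, a pepsinogen gene, to doxycycline differed in direction between the lines, at 1.09 in line 1 and -1.69 in line 2 on the log2 scale, a difference of -2.79. It read 6.68 in untreated line 1, 7.77 in line 1 with doxycycline, 9.71 in untreated line 2 and 8.02 in line 2 with doxycycline, against 6.73 and 7.11 in KH2. Each value is 1 array, so the difference was not tested.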

How the results depend on the processing

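The number of probes called was the least stable result. With no doxycycline term limma called 0 (1761 at an unadjusted p under 0.05, smallest adjusted p 0.0821), with the authors' normalised values 0 (2400, 0.0718) and with no filter on dim probes 0 (3872, 0.124). It called 920 with trend and robust moderation, 1327 with no background model, 717 among probes detected on all 4 arrays, 1078 with an offset of 50, and, in fits that take in KH2 and assume a lone array varies like the rest, 52 to 480 with 1 array left out against 236 with all 6. Without KH2, leaving out an array leaves no residual degree of freedom. Without chromosome 8 genes, chosen after seeing the data, it called 194. Genes at least 2-fold higher and lower in both pairs numbered 17 and 5 with no background model, 77 and 33 with the authors' values and 29 and 8 with an offset of 50. They were 138 and 65 in the pair with doxycycline only and 190 and 103 in the pair without, and 138 to 190 and 65 to 103 with 1 array left out. Without chromosome 8, 10 were lower. The chromosome 8 median was -0.35 with no background model, -0.41 with the authors' values, -0.44 among probes detected on all 4 arrays, -0.39 with an offset of 50, -0.44 when a gene was read by the mean of its probes, -0.44 in the untreated pair, -0.44 to -0.42 with 1 array left out and -0.15 with no filter, where most added probes were detected on no array. Responses at least 2-fold larger and smaller in line 2 numbered 20 and 38 with no background model, 36 and 53 with an offset of 50, and larger ones 150 with the authors' values.

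All 67 genes at least 2-fold apart kept their direction under every alternative that tested them, but they were chosen for it in these same arrays. Of the 67, 0 were called with no doxycycline term, with the authors' values or with no filter on dim probes. Among probes detected on all 4 arrays, 52 of the 67 were tested and 51 called, and the smallest absolute difference fell to 0.06. That was Tenm3, then read by its other probe, at -0.36 with doxycycline and 0.24 without. The probe that gave its 2-fold difference was detected on 2 of the 4 arrays. None of the 84 genes whose difference the text gives changed sign, but 76 of them had been called on these same arrays. Of 187 named by the rules or the text, 30 changed sign in at least 1 alternative, none of them called. Leaving out the doxycycline term, or using trend and robust moderation, left the fitted difference of each gene unchanged. So did taking in KH2 with no array left out. These alternatives could not change a sign, for the genes named here or for the 67. No paired analysis by replicate number was possible because every group holds replicate 1 only; the fit itself matches the lines by doxycycline. Signal near background limits dim genes: 12795 probes were detected on none of the 4 arrays.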

Other observations

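Some genes of striated muscle outside the smooth muscle list were also called higher in line 2. Not all such genes followed: Actc1, cardiac actin, was not detected on any inducible array, and Acta1, described above, was not called. Tnnc1, slow troponin C, read 8.41 and 6.72 in line 1 with and without doxycycline and 9.36 and 8.62 in line 2. Myl3, a ventricular myosin light chain, read 7.53 and 6.14 against 8.40 and 8.21, and Mb, myoglobin, 6.05 and 5.65 against 6.93 and 6.88. Fabp3, the heart fatty acid-binding protein, Pgam2, muscle phosphoglycerate mutase, and Fhl1, a LIM protein of muscle, differed by 1.01, 1.63 and 1.05 on the log2 scale. In all 6 both line 2 arrays were above both line 1 arrays, as in 23.3% of all genes. These genes were picked after their values were seen and the striated muscle genes on the array were not counted, so no list test was made. KH2 read 8.57 and 7.17 for Tnnc1, 7.15 and 6.27 for Myl3 and 7.69 and 7.35 for Pgam2.

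Replication-dependent histone genes of the large cluster on chromosome 13 differed as well, though not all the same way. H2bc12 was at 9.0 and 9.47 for line 1, 10.03 and 10.54 for line 2, with KH2 at 10.84 and 10.79. H2bc7, H2bc14, H3c3 and H3c10 were called higher by 0.83, 0.84, 1.11 and 0.95, while H3c7, detected on 1 of the 2 line 2 arrays, was called lower with a fitted difference of -0.89. Near-identical histone genes can share probe signal, and these genes too were picked after their values were seen.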
